A study of Mus musculus with 13 samples.

Results

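A set of 10 skeletal muscle genes was followed through the embryonic lower urinary tract of the mouse: Pax7, Myf5, Myod1, Myog, Myf6, Myh3, Myh8, Acta1, Ckm and Chrna1. They were chosen by name, and for each gene the probe set with the highest mean log2 intensity over the 13 arrays stood for it. The 10 genes had 13 probe sets, out of 18193 genes with a probe set of a single symbol. A gene entered the tests when at least 3 arrays exceeded an intensity of 167.76 (7.39 on the log2 scale), called the filter level here, and 9 of the 10 did so, of 15006 genes tested in all. Myf5 did not.

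The samples were 3 urethra arrays (replicates 1, 2 and 6), 3 bladder arrays (2, 6 and 8), 4 urogenital sinus arrays (1, 2, 6 and 7) and 3 arrays of a newborn reference. The region samples were taken at embryonic day 14 from FVB/N mice with the SMGA/EGFP transgene, in which the promoter of the smooth muscle gamma-actin gene Actg2 drives the fluorescent protein EGFP. The transgene was common to the 3 regions, and no embryo without it was among the region samples. Urethra and bladder were dissected as fluorescent tissue and the sinus as the dark region between them, so the dissection followed smooth muscle and not skeletal muscle. Region samples were not pooled. Theiler stage 22 holds the replicates numbered 6, 7 and 8, and Theiler stage 21 those numbered 1 and 2. The newborn reference was RNA of whole wild-type FVB/N mice at postnatal day 1, pooled from 4 males and 4 females, and contained muscle of the entire body. Whether 2 arrays of a different region share an embryo is not in the labels. The spread behind each p-value is that among these arrays, which may be partly technical.

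Skeletal muscle forms from progenitors that carry the paired-box factor Pax7 or its relative Pax3. The basic helix-loop-helix factors Myf5 and Myod1 commit these cells, and Myog and Myf6 drive their differentiation, in which myoblasts stop dividing, fuse and build sarcomeres. Myf5, Myod1, Myog and Myf6 bind E-boxes, short DNA elements of the form CANNTG, in the control regions of muscle genes. In the lower urinary tract, skeletal muscle is known as the external sphincter, a striated muscle around the urethra that holds urine under voluntary control, while the bladder wall is smooth muscle. Each sample was a whole dissected region, so the values do not place any transcript in the sphincter, and the genes are named here by their role in skeletal muscle. In bulk tissue, fewer muscle cells and less RNA per muscle cell cannot be told apart.

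Promoter windows are shown for 5 of the genes that span the steps of this programme, because they are the kind of sequence on which the E-box factors act. RefSeq promoter windows of the mouse build GRCm38.p6 were found for 8 of the 10 genes, and Myod1 and Myf6 were not listed. Each sequence is the 250 bases before the start used for that window, 5′ to 3′ on the gene's strand, with E-boxes in capitals. That start is not always the annotated gene start. The Myh3 window reaches past the annotated start at 67078273, and the windows of Pax7 and Myf5, not shown, lie wholly within the annotated gene. The windows are chr1:134289754-134290003 on the plus strand for Myog, chr11:67078050-67078299 on the plus strand for Myh3, chr8:123894776-123895025 on the minus strand for Acta1, chr7:19410844-19411093 on the plus strand for Ckm and chr2:73580339-73580588 on the minus strand for Chrna1.
Myog: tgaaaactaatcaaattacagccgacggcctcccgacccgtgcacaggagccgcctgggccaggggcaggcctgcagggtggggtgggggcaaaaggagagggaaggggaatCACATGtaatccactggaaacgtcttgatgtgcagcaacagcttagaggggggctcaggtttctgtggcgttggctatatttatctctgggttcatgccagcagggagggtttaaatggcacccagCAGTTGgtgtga
Myh3: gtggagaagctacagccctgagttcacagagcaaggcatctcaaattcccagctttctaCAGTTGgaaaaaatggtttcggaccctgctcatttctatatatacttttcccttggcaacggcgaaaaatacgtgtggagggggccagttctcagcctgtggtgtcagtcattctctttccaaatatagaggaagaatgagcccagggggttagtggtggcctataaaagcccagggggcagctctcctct
Acta1: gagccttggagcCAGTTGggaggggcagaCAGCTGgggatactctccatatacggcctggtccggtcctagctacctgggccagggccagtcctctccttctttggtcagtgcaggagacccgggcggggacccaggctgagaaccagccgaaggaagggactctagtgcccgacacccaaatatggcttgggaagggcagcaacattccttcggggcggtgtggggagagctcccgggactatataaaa
Ckm: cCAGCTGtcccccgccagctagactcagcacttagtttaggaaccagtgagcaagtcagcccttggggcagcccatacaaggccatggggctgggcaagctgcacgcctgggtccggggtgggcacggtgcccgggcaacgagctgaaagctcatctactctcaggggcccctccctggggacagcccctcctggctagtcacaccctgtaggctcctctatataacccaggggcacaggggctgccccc
Chrna1: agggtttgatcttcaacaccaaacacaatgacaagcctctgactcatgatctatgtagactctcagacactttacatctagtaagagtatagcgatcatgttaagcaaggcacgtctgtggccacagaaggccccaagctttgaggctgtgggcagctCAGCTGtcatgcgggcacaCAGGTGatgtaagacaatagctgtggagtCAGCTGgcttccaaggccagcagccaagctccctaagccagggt

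The E-box CANNTG reads as CANNTG on both strands, so 1 search covered both. At least 1 E-box stood in 6 of the 8 windows, against 66.2% of all 32851 windows of this length in the table, a share near that background. Counted from the start used for each window, the first base of the E-box lay at -138 and -12 in Myog, at -191 in Myh3, at -238 and -221 in Acta1, at -249 in Ckm and at -92, -73 and -44 in Chrna1. The Myh8 window also held 1, at -32, and the windows of Pax7 and Myf5, which lie within the annotated genes, held 0. The variant CAGCTG, itself an E-box, stood in 3 of the 8 windows (Acta1, Ckm and Chrna1), against 13% of all windows. The Chrna1 window held 2 copies of it, as did 1.26% of all windows with 2 or more. The CArG box, the element bound by serum response factor, was found in Acta1 alone among the 8, and in 1.47% of all windows. These matches describe letters in the windows and say nothing of binding in these samples.

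The 13 arrays were compared before the genes were described. Median intensity was 221 to 378 on urethra arrays, 142 to 238 on bladder arrays, 259 to 389 on sinus arrays and 278 to 455 on newborn arrays. A list of 15 smooth muscle genes averaged 11.40 to 12.43 (log2 intensity) on urethra arrays, 12.03 to 12.43 on bladder arrays, 9.82 to 11.01 on sinus arrays and 11.18 to 11.74 on newborn arrays, so every urethra and bladder array lay above every sinus array. The 3′ minus 5′ signal of Actb, a sign of RNA quality that is higher for shorter transcripts, reached 3.42 for urethra replicate 1 and 4.04 for bladder replicate 8, while the remaining 8 region samples lay between 1.21 and 2.72. Bladder replicate 8 also had the lowest median intensity, and the part of either in the results was not tested. A pair of arrays stood apart in what follows. Among the region arrays, urethra replicate 2 held the highest values of most of the skeletal muscle genes. Urogenital sinus replicate 1 resembled its group least, with a mean correlation of 0.871 to the other sinus arrays.

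**Figure D1:**
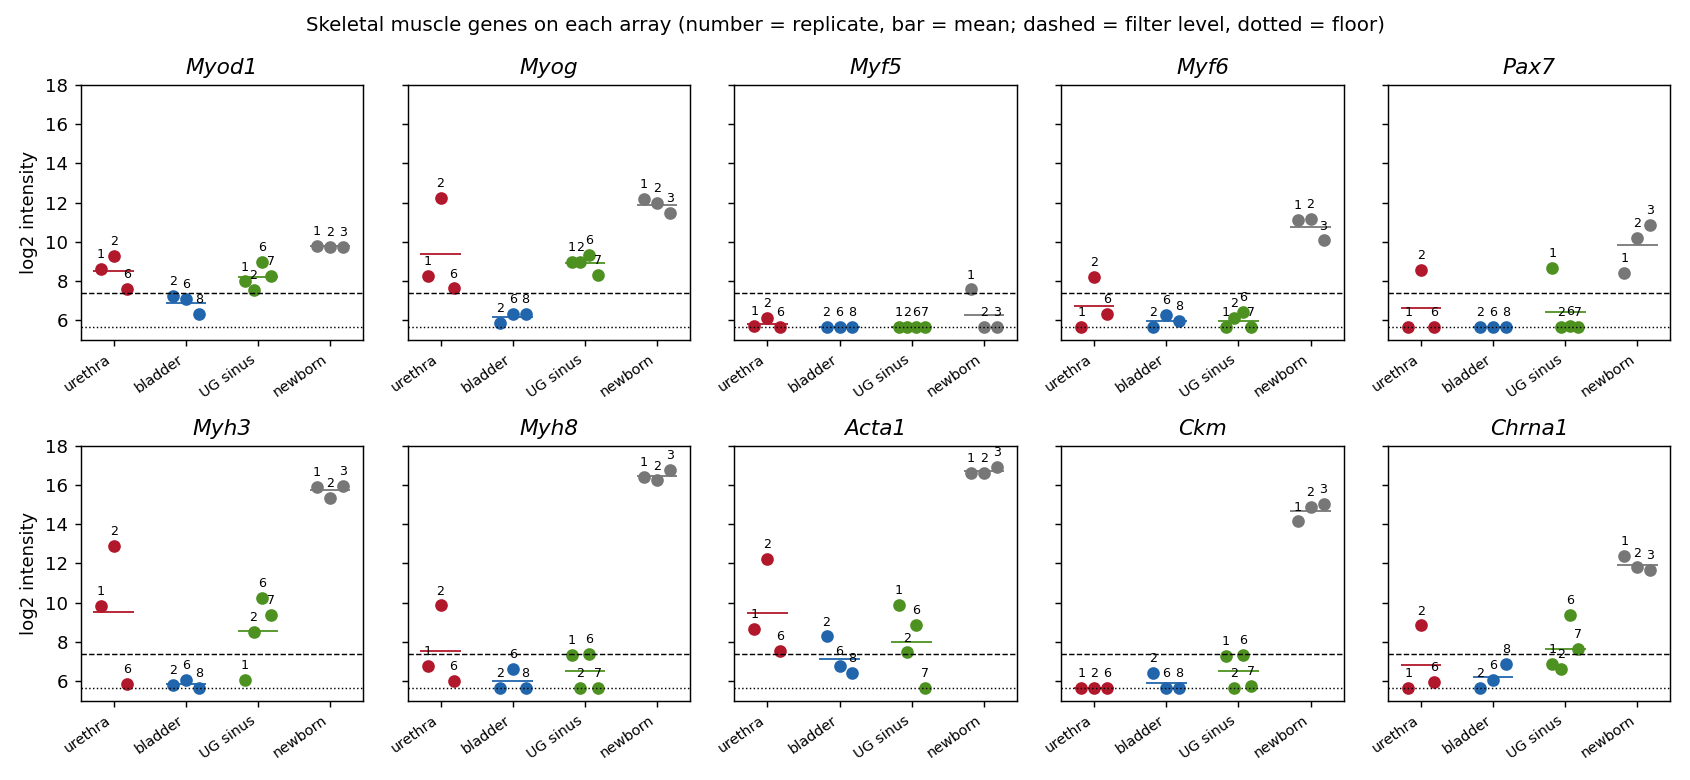
Log2 intensity of the 10 skeletal muscle genes on every array of urethra, bladder, urogenital sinus (UG sinus) and newborn reference, with points numbered by replicate and bars at group means; the dashed line is the filter level and the dotted line the floor for low values. Urethra replicate 2 lies above urethra replicates 1 and 6 for 9 of the 10 genes, and the bladder points lie under the filter level for all genes except Acta1 on bladder replicate 2.

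Values below are log2 intensities in the order of the replicate numbers just given, and values under the floor of 50.23 were set to it, which is 5.65 on this scale. The level of 1 gene is never set against that of another, because probe sets differ in how brightly they bind. Differences are in log2 units with their standard error (SE), and a gene is called when limma's adjusted p lies under 0.05. Where no array of a group was over the filter level, the fitted difference depends on the floor, and the fold that the brighter group's mean allows at least is given beside it. Values under the filter level have no order among themselves.

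Pax7, the marker of muscle progenitors and satellite cells, was measured in the regions on a pair of arrays only. It stood at 5.65, 8.55 and 5.65 on urethra arrays, at the floor on the 3 bladder arrays, at 8.67, 5.65, 5.70 and 5.65 on sinus arrays, and at 8.41, 10.21 and 10.87 on newborn arrays. Urethra replicate 2 and sinus replicate 1 were thus as high as the lowest newborn array, and the other 8 region arrays were at or next to the floor. The urethra and sinus values overlapped, and their means differed by 0.20 (SE 0.87, limma adjusted p = 0.963). The difference was -0.77 without urethra replicate 2 and 0.95 without sinus replicate 1, and it also fell below 0 without sinus replicate 2, 6 or 7. Without urethra replicate 2 the values allow no fold, so that sign cannot be read. A second Pax7 probe set reached at most 6.92, on a newborn array.

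Myf5, the earliest of the commitment factors to appear in the embryo, stood at 5.72, 6.11 and 5.65 on urethra arrays, at the floor on bladder arrays and at 5.67 and then the floor on sinus arrays. The newborn arrays gave 7.57, 5.65 and 5.65. Its probe set passed the filter level on newborn replicate 1 alone, so no level is given for any region and no test was made.

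Myod1, the other commitment factor, was over the filter level on every urethra and sinus array. It stood at 8.61, 9.30 and 7.60 on urethra arrays, at 7.25, 7.10 and 6.32 on bladder arrays, at 7.98, 7.56, 8.99 and 8.27 on sinus arrays, and at 9.81, 9.75 and 9.75 on newborn arrays. The 3 bladder arrays lay under all 7 urethra and sinus arrays and under the filter level, and the urethra and sinus values overlapped. Group means were 8.50 ± 0.86 in the urethra, 6.89 ± 0.50 in the bladder, 8.20 ± 0.60 in the sinus and 9.77 ± 0.03 in the newborn reference (SD, n = 3, 3, 4 and 3). The bladder was thus lowest and the newborn reference highest, and sinus and urethra between them did not differ beyond their spread. None of the differences between regions was called: bladder minus sinus was -1.31 (at least 1.75-fold lower, SE 0.49, limma adjusted p = 0.207), urethra minus bladder 1.61 (at least 2.16-fold higher, SE 0.52, adjusted p = 0.107) and urethra minus sinus 0.31 (SE 0.49, adjusted p = 0.859).

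Myog, or myogenin, the factor without which myoblasts do not form fibres, had the widest spread within the urethra among the regulators. It stood at 8.24, 12.23 and 7.62 on urethra arrays, at 5.86, 6.31 and 6.32 on bladder arrays, at 8.99, 8.99, 9.34 and 8.32 on sinus arrays, and at 12.19, 12.00 and 11.46 on newborn arrays. Urethra replicate 2 reached the level of the newborn arrays, whereas urethra replicates 1 and 6 lay under every sinus array. All bladder arrays lay under every urethra and sinus array and under the filter level, so the urethra mean was at least 3.92-fold above the bladder, or at least 1.45-fold without urethra replicate 2, and the bladder at least 2.87-fold below the sinus mean. The bladder minus sinus difference was -2.75 (SE 0.92, limma adjusted p = 0.161) and the urethra minus bladder difference 3.20 (SE 0.98, adjusted p = 0.0953), or 1.77 (SE 0.39, adjusted p = 0.0667) without urethra replicate 2. Leaving out urethra replicate 2 left the bladder and sinus values as they were and narrowed the shared estimate of spread, with bladder minus sinus then called at an adjusted p of 0.0108. The urethra minus sinus difference was 0.45 (SE 0.92, adjusted p = 0.895) with that array and -0.98 (SE 0.37, adjusted p = 0.461) without it.

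Myf6, a differentiation factor that is kept in mature fibres, was over the filter level on 1 region array. It stood at 5.65, 8.20 and 6.32 on urethra arrays, at 5.65, 6.27 and 5.95 on bladder arrays, at 5.65, 6.10, 6.42 and 5.65 on sinus arrays, and at 11.10, 11.17 and 10.07 on newborn arrays. The 3 regions overlapped and all lay under the newborn arrays. With no sinus array and the urethra mean of 6.72 not over the filter level, no fold is given between them (limma adjusted p = 0.652).

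Myh3 encodes embryonic myosin heavy chain, the first myosin of new fibres. It stood at 9.83, 12.89 and 5.86 on urethra arrays, at 5.80, 6.05 and 5.65 on bladder arrays, at 6.07, 8.50, 10.25 and 9.38 on sinus arrays, and at 15.89, 15.34 and 15.93 on newborn arrays. Within the urethra the 3 arrays ran from next to the floor to 12.89, within the sinus from 6.07 to 10.25, and in the bladder no array reached the filter level. Sinus replicate 1 was under the filter level like the bladder arrays, and the other 3 sinus arrays were above it. Bladder minus sinus was -2.72 (at least 2.23-fold lower, SE 1.45, limma adjusted p = 0.368). Urethra minus bladder was 3.69 (at least 4.4-fold higher, SE 1.55, adjusted p = 0.184), with urethra replicate 6 under the filter level, and 2.01 (at least 1.37-fold higher) without urethra replicate 2. Urethra minus sinus was 0.98 (SE 1.45, adjusted p = 0.851), or -0.71 without urethra replicate 2.

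Myh8, the perinatal myosin heavy chain that follows Myh3 in development, stood at 6.75, 9.85 and 6.00 on urethra arrays, at 5.65, 6.62 and 5.65 on bladder arrays, at 7.34, 5.65, 7.39 and 5.65 on sinus arrays, and at 16.39, 16.23 and 16.75 on newborn arrays. Urethra replicate 2 was clear of the filter level, sinus replicate 6 sat just above it, and the other region arrays were under it. Urethra minus sinus was 1.02 (SE 0.86, limma adjusted p = 0.72), or -0.13 without urethra replicate 2, where the values allow no fold.

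Acta1 encodes skeletal alpha-actin, the main actin of the thin filament. It stood at 8.67, 12.24 and 7.55 on urethra arrays, at 8.27, 6.75 and 6.41 on bladder arrays, at 9.86, 7.46, 8.88 and 5.65 on sinus arrays, and at 16.61, 16.61 and 16.93 on newborn arrays. The regions overlapped, with bladder replicate 2 above urethra replicate 6 and above sinus replicates 2 and 7. Urethra minus bladder was 2.34 (SE 1.30, limma adjusted p = 0.289) and urethra minus sinus 1.52 (SE 1.22, adjusted p = 0.703). Without urethra replicate 2 the first was 0.96 and the other 0.14. Binding of related actin transcripts to this probe set, and of related myosin transcripts to those of Myh3 and Myh8, was not tested.

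Ckm is the muscle creatine kinase that buffers ATP in working fibres. Its brighter probe set, which stands for it in the tests, was over the filter level on newborn arrays alone. It stood at the floor on the 3 urethra arrays, at 6.40 and then the floor on bladder arrays, at 7.28, 5.65, 7.33 and 5.75 on sinus arrays, and at 14.14, 14.86 and 15.01 on newborn arrays. Urethra replicate 2, which was the highest region array for most of the other genes, was at the floor on this probe set like the rest of its group. A second Ckm probe set gave 7.19, 7.87 and 7.82 on urethra arrays, 6.99, 7.04 and 7.45 on bladder arrays, 6.86 to 9.17 on sinus arrays and 9.29, 8.80 and 9.26 on newborn arrays. That set was over the filter level on 5 region arrays, so the 2 probe sets disagreed on how far the regions lay under the newborn reference. No fold between urethra and bladder is given for the brighter set, where neither was over the filter level.

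Chrna1 encodes the alpha subunit of the muscle acetylcholine receptor, through which motor nerves reach the fibre. It stood at 5.65, 8.83 and 5.95 on urethra arrays, at 5.65, 6.04 and 6.86 on bladder arrays, at 6.85, 6.60, 9.35 and 7.63 on sinus arrays, and at 12.36, 11.79 and 11.65 on newborn arrays. Its highest region value was on sinus replicate 6 and not on urethra replicate 2, and urethra replicates 1 and 6 and sinus replicates 1 and 2 were under the filter level. Urethra minus sinus was -0.80 (SE 0.85, limma adjusted p = 0.781) and bladder minus sinus -1.42 (at least 1.16-fold lower, SE 0.85, adjusted p = 0.412). Urethra minus bladder was 0.63 (SE 0.91, adjusted p = 0.694), or -0.38 without urethra replicate 2.

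Between urethra and urogenital sinus, 0 of the 9 tested genes were called with limma, where 0.0133% of all 15006 genes were, and 0 had an unadjusted p under 0.05, which 10.3% of all genes had. All 9 overlapped between these groups. The median difference of the 9 genes was 0.45, beside 0.05 over all genes tested, and 7 of the 9 were above 0. With genes at the fold they allow at least, and at 0 where they allow none, the median was 0.31, or 0 without urethra replicate 2. Leaving out urethra replicate 2 took the fitted median to -0.71, beside 0.05 over all genes, with the fitted values of Myod1, Myog, Pax7, Myh3 and Myh8 turned to the other sign. Pax7 and Myh8 allow no fold without that array, so their signs there cannot be read.

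Between bladder and sinus, 0 of the 9 were called with limma, where 2.53% of all genes were, and Myod1 and Myog had an unadjusted p under 0.05, as had 17.2% of all genes. For 3 genes, Myod1, Myog and Myh3, every bladder array lay under every sinus array, which 10.6% of all genes tested also did. For Myh3 this order includes sinus replicate 1, which like the bladder arrays was under the filter level, and so cannot be read for that array. The fitted median of the 9 was -0.82, beside -0.19 over all genes, and it was -0.21 with genes at the fold they allow at least. Bladder arrays had the lower median intensity, and with every array centred on its median log2 intensity, or with quantile normalization, the count of called genes was again 0. Array weights in limma gave 5 lower (Myod1, Myog, Myh3, Ckm and Chrna1), though for Ckm no bladder or sinus array was over the filter level. Over all alternatives the count among all genes ran from 46 to 2667, against 379 in the main fit. The share of 2.53% is therefore no background for those 5. Other lists were lower in the bladder as well, and their part in these values was not tested. The neuron list, with 11 genes tested, averaged 8.10 to 10.33 in the urethra, 7.05 to 9.07 in the bladder, 7.56 to 12.87 in the sinus and 10.30 to 10.61 in the newborn reference. Its median for bladder minus sinus was -3.65, with 11 of 11 genes below 0 and 2, the neuronal factors Isl1 and Elavl3, called. The epithelium list, 12 genes, averaged 11.95 to 12.75 in the urethra, 10.42 to 11.23 in the bladder, 11.36 to 12.07 in the sinus and 12.19 to 12.55 in the newborn reference, and its median was -0.92, with the basal keratin Krt5 called lower. The erythroid list, 6 genes, averaged 9.73 to 12.07, 9.38 to 10.24, 9.77 to 12.46 and 9.90 to 10.21 in the same order, with a median of -0.52 and 0 called.

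Between urethra and bladder, 0 of the 9 were called with limma, where 4.32% of all genes were, and Myod1, Myog and Myh3 had an unadjusted p under 0.05, as had 24.3% of all genes. Myod1 and Myog were higher on every urethra array than on every bladder array, as were 22.6% of all genes tested. The fitted median of the 9 was 1.56, beside 0.25 over all genes, and without urethra replicate 2 it was 0.40, beside 0.22. With genes at the fold they allow at least it was 0.14, or 0 without urethra replicate 2. In this comparison the neuron list had a median of 2.00, with Isl1 higher, and the epithelium list one of 1.32, with Krt5, Krt14, Krt15 and Shh higher.

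**Figure D2:**
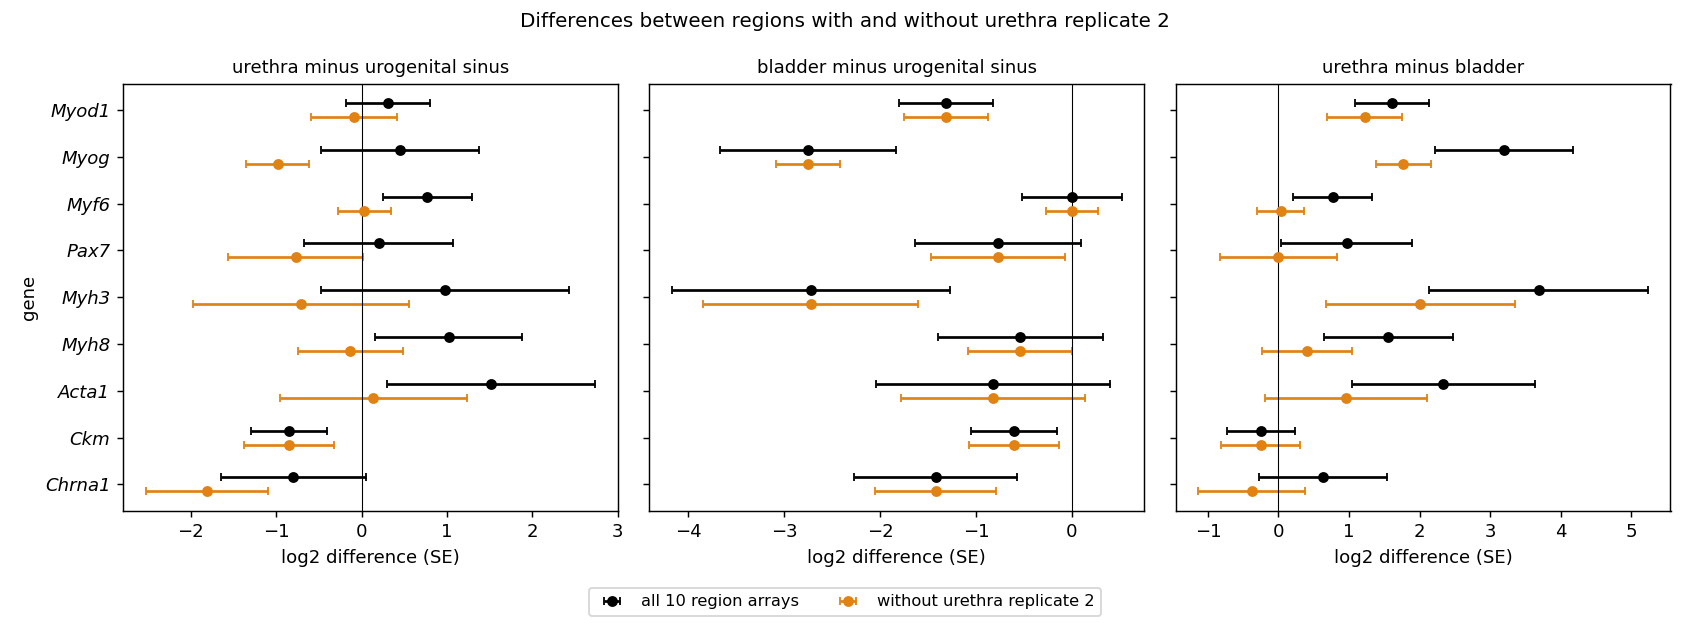
Log2 differences between regions (points) with their standard errors (bars) for the 9 tested genes, over all 10 region arrays in black and without urethra replicate 2 in orange. For urethra minus urogenital sinus, Myog is 0.45 in black and -0.98 in orange, while the bladder minus urogenital sinus values coincide because that array enters neither group; values of genes with no array over the filter level in a group depend on the floor.

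Relative to the newborn reference, Myf6, Myh8, Acta1, Ckm and Chrna1 were lower in all 3 regions, and Myod1, Myog and Myh3 were called lower in the bladder. The reference enters as the mean of its 3 arrays, counted as 1 sample whose spread is taken to equal that of the regions. Age, tissue, pooling and transgene differ together between the regions and the reference and cannot be told apart. Ckm passed the filter through the newborn arrays alone and so had to differ from the reference in order to be tested. It is therefore given apart from the counts below, which are of the other 8 genes. On the mean of its 2 probe sets the regions differed from the reference by -5.25 in the urethra, -5.36 in the bladder and -4.75 in the sinus, less than on the brighter set, for which each region was at least 156-fold lower. Myf6 passed with 1 region array beside the newborn ones, and Pax7 and Myh8 with 2, so the same selection bears on these 3 genes. The counts of the 8 genes include these 3 and are therefore partly set by the filter.

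In the urethra, 4 of the 8 genes were lower than in the newborn reference and 0 higher, where 8.86% of all genes were called lower with limma. They were Myh8 (-8.93, limma adjusted p = 0.0015), Myf6 (-4.05, adjusted p = 0.00788), Chrna1 (-5.12, adjusted p = 0.0269) and Acta1 (-7.23, adjusted p = 0.028). Myod1 differed by -1.27 (SE 0.73, adjusted p = 0.317), Myog by -2.52 (SE 1.39, adjusted p = 0.293), Pax7 by -3.21 (SE 1.32, adjusted p = 0.158) and Myh3 by -6.19 (SE 2.20, adjusted p = 0.102). With each array left out in turn, the genes called in either direction among all tested ran from 1572 to 2520, against 1984 with all arrays. A changed count is therefore not particular to the genes followed here. The count of the 8 depended on single arrays. Without urethra replicate 2 it was 7, with Myog (-3.95, adjusted p = 0.00171), Myh3 (-7.87, adjusted p = 0.0243) and Pax7 (at the floor on both remaining arrays, adjusted p = 0.045) now lower. It was 2 without urethra replicate 1, where Acta1 had an adjusted p of 0.0694 and Chrna1 0.0647, and 2 without urethra replicate 6, where these were 0.0654 and 0.0688.

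In the bladder, 7 of the 8 were lower than in the newborn reference, where 11.2% of all genes were called lower with limma. Since every bladder array was under the filter level for 8 of the 9 tested genes, most of these differences are bounds. Myh8 was at least 536-fold lower, Myh3 at least 321-fold, Chrna1 at least 23.3-fold, Myog at least 22.5-fold, Myf6 at least 10.5-fold and Myod1 at least 5.21-fold, with limma adjusted p-values from 0.00047 to 0.0243. Acta1, with 1 bladder array over the filter level, differed by -9.57 (SE 1.84, adjusted p = 0.00621), and Pax7, at the floor on all 3, allowed at least 5.42-fold (adjusted p = 0.0577) and was not called. The call of Myod1 was lost without bladder replicate 8 (adjusted p = 0.0619), and Pax7 was lower without newborn replicate 1 (0.0274), urethra replicate 2 (0.0303) or sinus replicate 1 (0.0159).

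In the urogenital sinus, 4 of the 8 were lower than in the newborn reference, where 9.18% of all genes were called lower with limma. They were the 4 genes called in the urethra: Myh8 (-9.95, limma adjusted p = 0.000561), Myf6 (at least 10.5-fold lower, adjusted p = 0.0023), Acta1 (-8.75, adjusted p = 0.00928) and Chrna1 (-4.33, adjusted p = 0.047). The urethra and sinus comparisons share the reference arrays. The call of Chrna1 was lost without any 1 of bladder replicates 2, 6 and 8, sinus replicates 1, 2 and 7, urethra replicate 6 or newborn replicate 1, at adjusted p-values of 0.0508 to 0.0853. Myh3, at -7.17 with an adjusted p of 0.0527, was called without urethra replicate 2 (0.0232), urethra replicate 6 (0.0144) or newborn replicates 1 (0.0489) or 2 (0.0449). Myog (-2.97, adjusted p = 0.198) was called without urethra replicate 2 (0.00442), and Pax7 (-3.41, adjusted p = 0.119) without sinus replicate 1 (0.0185).

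**Figure D3:**
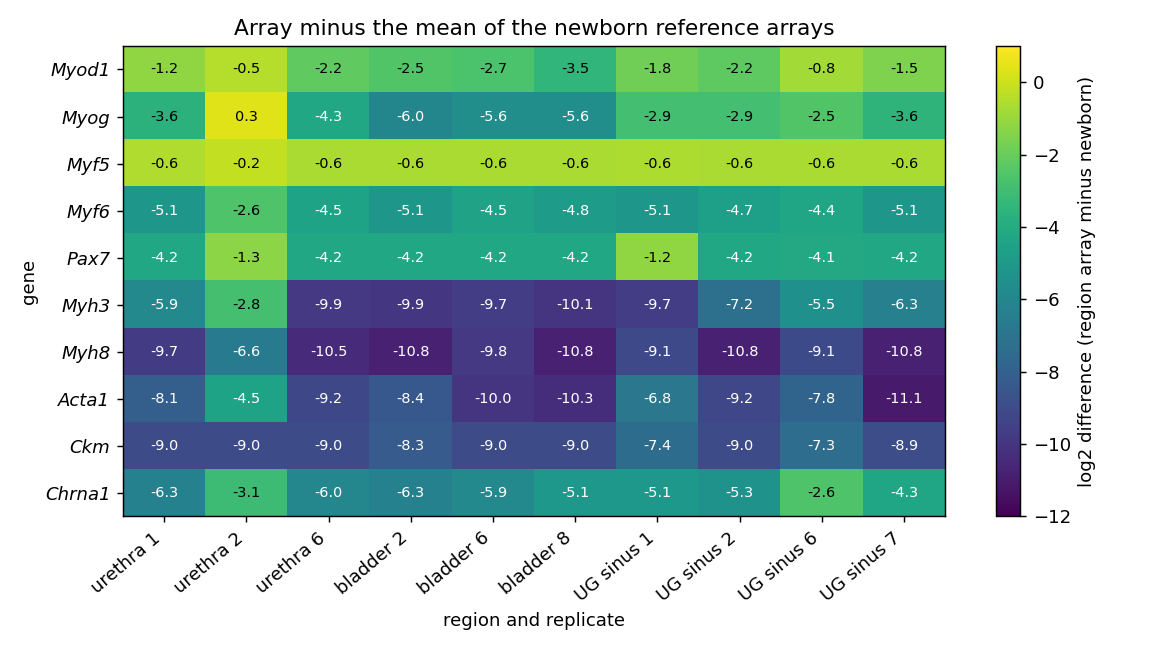
Each region array minus the mean of the 3 newborn reference arrays, in log2 units, for the 10 skeletal muscle genes; UG sinus is the urogenital sinus. On urethra replicate 2 the difference is 0.35 for Myog and -0.47 for Myod1, but -4.48 for Acta1 and -6.61 for Myh8; Ckm is at the floor there, and values for Myf5 rest on a newborn mean near the floor.

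Urethra replicate 2 was then described by itself. The 9 tested genes averaged 9.75 on it, against 7.19 and 6.47 on urethra replicates 1 and 6, and 6 of the 9 had their highest region value there (Myod1, Myog, Myf6, Myh3, Myh8 and Acta1). Set against the newborn mean, that array differed by 0.35 for Myog, -0.47 for Myod1, -2.58 for Myf6, -2.82 for Myh3, -4.48 for Acta1 and -6.61 for Myh8, and Ckm was at the floor. A count was made of genes that exceeded the highest of the other 9 region arrays by at least 1 log2 unit. Urethra replicate 2 had 99 such genes, or 0.660% of all genes tested, 5 of them among the 9 followed here (Myog, Myh3, Myh8, Acta1 and Myf6). Urogenital sinus replicate 1 had 307 such genes (2.05%) and urethra replicate 1 had 152 (1.01%), with 0 of the 9 on either, and the other region arrays had 5 to 38.

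The 15 genes that stood out most on urethra replicate 2 were, in order, Tceal7, Mymx, Myom2, Myog, Mybpc1, Myot, Myh3, Sim2, Mylpf, Tnnc2, Cav3, Tnnc1, Myh8, Acta1 and Actc1. Tceal7 exceeded the next region array by 3.72. Mymx encodes myomixer, a small membrane protein with which myoblasts fuse, and stood 2.98 above the highest of the other 9 region arrays, which was 7.02, with a newborn mean of 8.64. Myom2 and Myot are proteins of the M-band and Z-disc, Mybpc1 a myosin-binding protein, Mylpf a fast myosin light chain, Tnnc1 and Tnnc2 the slow and fast troponin C, and Cav3 the caveolin of muscle. Actc1, cardiac alpha-actin, is also the actin of embryonic skeletal muscle and stood at 14.75, against at most 12.39 on the other 9 region arrays. These genes were picked for being high on this array, so the list is a description of 1 sample.

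**Figure D4:**
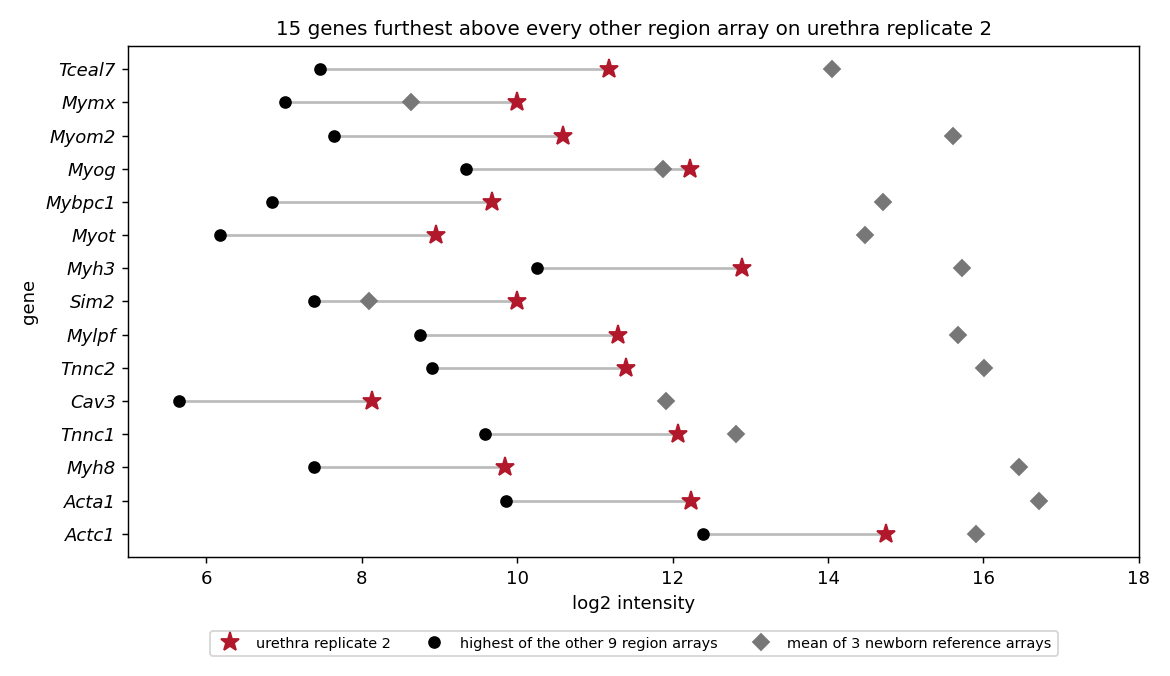
Log2 intensity of the 15 genes furthest above every other region array on urethra replicate 2 (stars), with the highest of the other 9 region arrays (circles) and the mean of the 3 newborn reference arrays (diamonds). For Myog, Mymx and Sim2 the star lies above the newborn mean, and for Myh8 and Acta1 it lies several log2 units below.

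Markers of other tissues were read on the same array, and their part in its values was not tested. The cardiac muscle list, with 14 genes tested, ran from 7.04 to 8.23 over the region arrays, and urethra replicate 2 was neither the lowest nor the highest. The cartilage and bone list, 12 genes, averaged 8.83 there, against 8.02 and 7.86 on urethra replicates 1 and 6, 7.75 to 7.77 in the bladder, 8.10 to 8.44 in the sinus and 11.08 to 11.37 in the newborn reference. It was the highest of the region arrays for this list, with 10 of the 12 genes over the filter level. A tendon list of 8 genes averaged 10.12 on it and 9.89 and 9.99 on urethra replicates 1 and 6, and the smooth muscle list 12.24, against 11.40 and 12.43. Its median intensity, 378, was the highest of the urethra arrays.

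**Figure D5:**
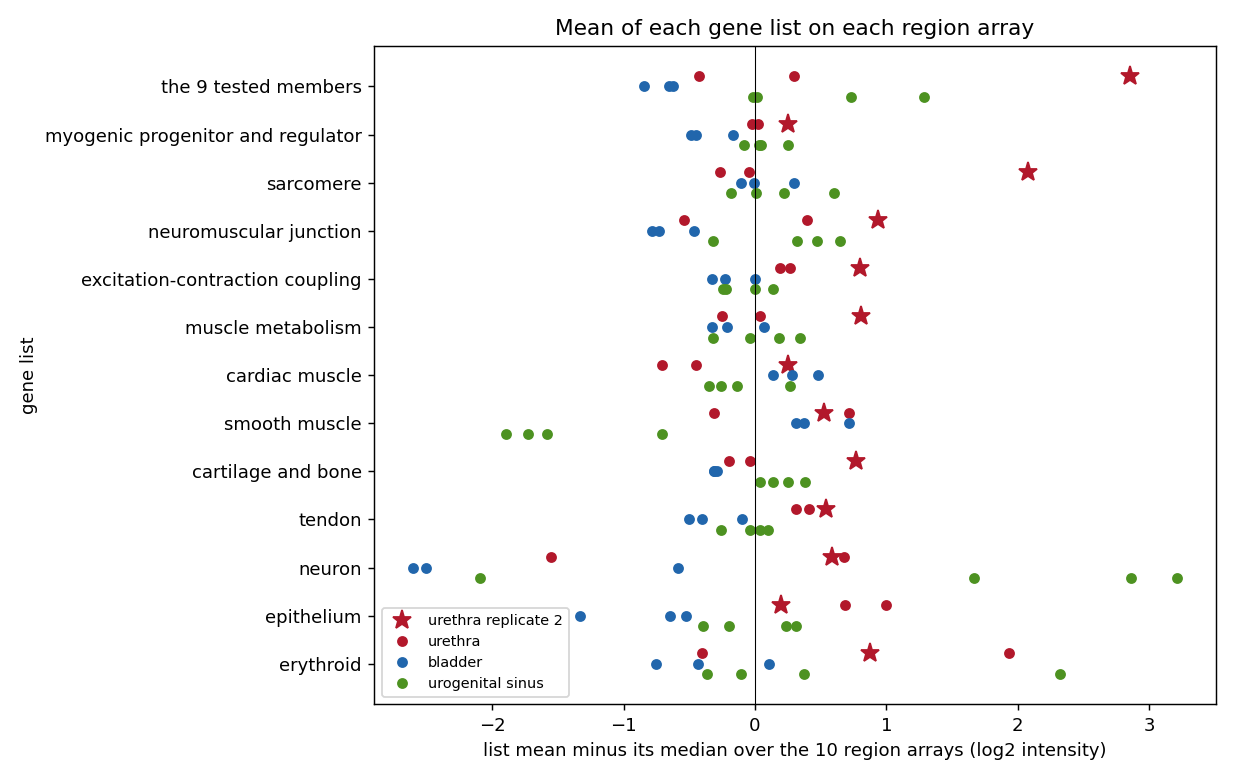
Mean log2 intensity of each gene list on each of the 10 region arrays, minus the median of the list over these arrays, with urethra replicate 2 as a star. The star stands furthest right for the 9 skeletal muscle genes and for the sarcomere list, whose mean on that array is 9.57, and less far for the cartilage and bone list.

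The genes around the 10 were read from 5 lists of skeletal muscle function. A sarcomere list had 31 genes, all tested. It averaged 9.57 on urethra replicate 2, where 21 of the 31 were highest among the region arrays, against 7.45 and 7.23 on urethra replicates 1 and 6, 7.39 to 7.79 in the bladder, 7.31 to 8.10 in the sinus and 13.27 to 13.71 in the newborn reference. Between urethra and sinus 0 were called in either direction, with a median of 0.51 beside 0.05 over all genes, or -0.20 without urethra replicate 2. The largest mean differences were those of Myh7, the slow myosin heavy chain (2.17, SE 0.77, limma adjusted p = 0.377), Tpm2, beta-tropomyosin (1.70), and Actn2, the alpha-actinin of the Z-disc (1.51). Without urethra replicate 2, Myh7 was 1.15 and Actn2 0.77. Tpm2, which smooth muscle also makes, was the only gene of this list called between bladder and sinus, at 2.12 (adjusted p = 0.0315) on the higher side. Against the newborn reference 25 of the 31 were lower in the urethra, 27 in the bladder and 27 in the sinus. Over all genes 8.86%, 11.2% and 9.18% were called lower with limma. Some of the 31 reached the 3 arrays of the filter only through the newborn arrays. The counts of lower genes are therefore partly set by the filter. Tnnt3, Tnnc2, Neb, Mybpc1, Mybph, Myh1 and Cav3 had some region arrays over the filter level, but fewer than 3, and 4 other genes had none. These 4 were tested only because the newborn arrays were high, and so had to lie lower in the regions. They were the fast myosins Myh2 (at least 96.5-fold lower in each region) and Myh4 (at least 56.3-fold), Actn3, an alpha-actinin of fast fibres (at least 26.1-fold), and Xirp1, an actin-binding protein (at least 4.13-fold).

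Among 18 tested regulators of muscle progenitors and differentiation, 0 were called between urethra and sinus. Between urethra and bladder 5 were higher and 1 lower, where 4.32% of all genes were called with limma, with a median of 0.50 beside 0.25 over all genes. The higher ones included Six4 (2.51, limma adjusted p = 0.0171) and Eya1 (2.80, adjusted p = 0.029), a homeobox factor and its cofactor that act upstream of the myogenic factors and in other organs, and the helix-loop-helix factors Tcf21 (1.87, adjusted p = 0.0171) and Msc (1.63, adjusted p = 0.0284). The fifth was Eya2, a relative of Eya1 (at least 1.33-fold, adjusted p = 0.0309), with no bladder array over the filter level. Mef2c, a partner of the myogenic factors that is also active in vessels and smooth muscle, was the 1 lower, at -1.52, and Eya2 and Mef2c are named after their values were seen. Six4 and Eya1 were also lower in the bladder than in the sinus, by -2.47 (adjusted p = 0.0179) and -3.07 (adjusted p = 0.0215). The list averaged 10.70 on urethra replicate 2, 10.43 and 10.47 on the other urethra arrays, and up to 10.70 in the sinus. The list median against the newborn reference was -0.44 in the urethra, -0.48 in the bladder and -0.51 in the sinus.

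The remaining 3 lists hold the junction with the nerve, the coupling of excitation to contraction, and the metabolism of fibres. Of 10 neuromuscular junction genes 6 were tested, and 0 were called between any regions. Rapsn, which clusters acetylcholine receptors, was lower than in the newborn reference by at least 1.8-fold in the bladder (limma adjusted p = 0.0301) and in the sinus (adjusted p = 0.0434), neither with an array over the filter level, and differed by -1.31 (adjusted p = 0.258) in the urethra. Rapsn passed the filter with 2 urethra arrays beside the newborn ones, so selection through the newborn arrays bears on these calls. Of 14 coupling genes, the ryanodine receptor Ryr3 was lower in the bladder than in the sinus (-1.94, adjusted p = 0.03) and higher in the urethra than in the bladder (2.02, adjusted p = 0.0253), and Jph2, a junctophilin also made by other muscle, was higher in the bladder than in the sinus (2.36, adjusted p = 0.0412). Against the newborn reference 10 of the 14 were lower in the urethra, 11 in the bladder and 10 in the sinus, among them triadin (Trdn), at least 23.3-fold lower in each. Trdn is 1 of 3 coupling genes with no region array over the filter level, which were tested only because the newborn arrays were high and so had to lie lower. Ryr1, with 1 urethra array over that level and no other region array, also passed only through the newborn arrays. Over all genes 8.86%, 11.2% and 9.18% were called lower with limma in the urethra, bladder and sinus. Of the 12 metabolic genes 0 were called between regions, and 11 were lower than in the newborn reference in the urethra, 12 in the bladder and 12 in the sinus, with the mitochondrial creatine kinase Ckmt2 at least 59.7-fold lower in each. For 4 of these 12 genes, Ckmt2 among them, no region array was over the filter level, so these 4 also had to lie lower in order to be tested. Pygm and Pgam2 had fewer than 3 region arrays over that level, so they also passed only through the newborn arrays. The metabolic counts stand beside the same shares of all genes.

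The 12 calls between regions in these 5 lists rested on few arrays. Leaving out the arrays in turn ended each call for 4 to 8 of the 10 arrays, and leaving out bladder replicate 2 ended all 12. Among all genes, the calls then ran from 46 to 645 for bladder against sinus, against 379 with all arrays. For urethra against bladder they ran from 97 to 1290, against 648. The losses are therefore not read as particular to these 12 calls. Against the newborn reference, the call of Rapsn ended without any 1 of the bladder arrays or newborn replicate 3 in the bladder, at adjusted p-values up to 0.0838. In the sinus it ended without any 1 of 7 arrays, among them all 3 bladder arrays, at adjusted p-values up to 0.129.

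How the members varied together was read over the 10 region arrays, as a description, since the arrays share regions and overall signal. Myod1 correlated with Myog at r = 0.83 and with Myh3 at r = 0.87, and without urethra replicate 2 at 0.77 and 0.82. Myh8 and Acta1 correlated at 0.89, or 0.72 without that array. For Myog and Myf6, r was 0.71 with urethra replicate 2 and 0.09 without it, so that relation rested on 1 array. Without urethra replicate 2, Myh8 was over the filter level on sinus replicate 6 alone and Myf6 on no region array. The r values of these genes without it therefore rest mostly on values that have no order among themselves. The genes outside the 10 whose pattern was closest to the mean of the 9 tested genes were Tnnc1 (r = 0.974 over 10 arrays, 0.92 without urethra replicate 2), Iffo1 (0.967 and 0.90), Epyc (0.960 and 0.88), Ptprv (0.956 and 0.97) and Tceal7 (0.947 and 0.90). They were followed by Csrp3, Myom2, Lhx3, Itgb1bp2 and Mylpf, at 0.925 to 0.939.

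Between Theiler stages 22 and 21, with region as a covariate, 0 of the 9 genes and 0 of all genes tested (0%) were called with limma. At an unadjusted p under 0.05 there were 0 of the 9, beside 25.5% of all genes. Acta1 had the largest stage difference of the 9, at -1.91 (SE 0.89, adjusted p = 0.216), and the median was -0.47, beside -0.11 over all genes.

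The sample titles are written in 3 styles, and the labels do not say whether these mark batches. The urethra arrays and newborn replicate 3 share 1 style that no bladder or sinus array has, so the urethra cannot be compared with the other regions within a style. Within the style shared by 2 bladder and 3 sinus arrays, bladder minus sinus was -1.0 for Myod1, -3.03 for Myog and -2.35 for Myh3. In the style with 1 array of each it was -1.95, -2.00 and -3.73. For these 3 genes every bladder array lay under every sinus array, so a split by style could not have shown otherwise. It is therefore no separate support for the difference. Within the style of the urethra, the urethra minus newborn difference was -1.25 for Myod1, -2.10 for Myog, -6.40 for Myh3 and -7.44 for Acta1.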

How the data were processed

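Per the labels, total RNA was amplified in 2 rounds, labelled with biotin and hybridised to Affymetrix MOE430 arrays. The authors deposited linear signal intensity for 45101 probe sets on 13 arrays, all of them used. GCOS, Affymetrix software, is named in the submitters' processing notes with no version. Any further step is not given in the sources used here. With a 2% trimmed mean of 1500 on every array, the table was used as it stands. The precision is limited by the number of arrays.

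Values under the 20th percentile (50.23) were set to it before taking log2. Control probe sets (64) were set aside, and 34945 probe sets carried 1 symbol in the platform annotation, 932 several and 9160 none. Genes with at least 3 arrays over the 40th percentile (167.76) were tested. The tests used limma 3.58.1 (lmFit, then eBayes with trend) under R 4.3.3, with two-sided p-values adjusted by Benjamini-Hochberg over 15006 genes. The regions shared 1 estimate of the spread, with 7 residual and 2.83 prior degrees of freedom. Where no array of a group reached the filter level, a fold change is a bound, the brighter mean over that level. The fits were tested on simulated data.

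The 10 genes and the 12 further lists (174 genes, 159 tested) were chosen with earlier results of these data known. The text names the 10 genes; in each list the called genes with the smallest adjusted p, at most 4 per comparison, or at most 3 with the largest urethra minus sinus difference; the 10 genes most like the mean of the tested members; and 15 genes that stand out on the array where the members are highest. Alternatives covered normalization, floor, filter, probe sets, limma settings, arrays in the fit, blocks (statmod 1.5.0), stage, and each array left out.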

Additional observations from a re-analysis of the deposited data

Results flagged for a closer look

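Only the urogenital sinus has enough arrays for a check of single values that stand far from the rest of their group, and chance alone would flag about 1 in 20 such groups. Among the 10 genes, 2 were marked, both on urogenital sinus replicate 1. Pax7 stood at 8.67 there, against 5.70 on the nearest other sinus array, and that gap took up 0.984 of the whole range of the group. Myf5 stood at 5.67 there while the other 3 sinus arrays were at the floor of 5.65, which is a gap between an intensity of 51.04 and the floor and carries no information on expression.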

How the results depend on the processing

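Under the alternatives, counts of called members equalled the main count or stayed within 1.5 times of it in 170 cases and did not in 11. Between bladder and sinus (0 called), array weights gave 5 (Myod1, Myog, Myh3, Ckm and Chrna1), and a fit of those groups alone gave 1 (Myog). Between urethra and bladder (0), taking the newborn arrays as 3 samples gave 1 (Myog). For the urethra against the newborn reference (5, Ckm included), no floor gave 3, a fit of those groups alone 1 (Ckm) and the newborn arrays as 3 samples 8, and for the sinus (5) that last setting gave 9. With each array left out in turn, the count ran from 3 to 8 for the urethra against the newborn reference, 7 to 9 for the bladder, 4 to 7 for the sinus and 0 to 1 for bladder against sinus, and it was 0 throughout for urethra against sinus, for urethra against bladder and for stage. Title numbers recur between regions, but the deviations of same-numbered arrays correlated at -0.17 to 0.36, above 0 in 6 of 7 pairs but not in all, and the labels name no shared source, so they were not taken as pairs, and with the replicate number as a block 0 members were called between any regions. The urethra minus sinus sign of Pax7 turned with no floor (-0.60), the replicate block (-0.06), and title style as a block (-1.38), and with each array left out it ran from -0.77 to 0.95, below 0 without urethra replicate 2 or sinus replicate 2, 6 or 7. Array weights turned Myod1 (-0.54), Myog (-0.21) and Myh3 (-1.40) in that comparison. With each array left out, Myod1 ran there from -0.09 to 0.76, Myog from -0.98 to 1.32, Myh3 from -0.71 to 2.81 and Myh8 from -0.13 to 1.79, below 0 only without urethra replicate 2. Between urethra and bladder, Ckm, with neither group over the filter level on its brighter set, turned as the mean of all probe sets (0.11), Pax7 with title style as a block (-0.61) and Chrna1 without urethra replicate 2 (-0.38, up to 1.20 without urethra replicate 1). The causes were not tested. Counts among all genes moved under the alternatives too, so a changed count of members is not by itself a result about the members. Over all alternatives, counts among all genes ran from 0 to 660 for urethra against sinus (2 called), 46 to 2667 for bladder against sinus (379), 55 to 1870 for urethra against bladder (648), 593 to 4192 for the urethra against the newborn reference (1984), 1771 to 5791 for the bladder (2552), 993 to 5272 for the sinus (2072) and 0 to 1421 for stage (0). Leaving out newborn arrays was added after seeing the data. Levels under the filter level cannot be ordered.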
